A study of Mus musculus with 4 samples.

Results

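The translation initiation factors (eIFs) and elongation factors (eEFs) are the cytosolic proteins that load a ribosome onto an mRNA, find the start codon and move the ribosome along the coding sequence. The genes described here were picked out by a rule on names that uses no measured value: protein-coding genes whose GENCODE release 21 symbol begins with Eif or Eef and a digit, with Eif2s3x and Eif2s3y left out. That rule found 65 genes of 50600 in the tables, 21764 of them protein-coding, spread over 20 chromosomes. The study has 1 group of 4 RNA-seq libraries, so it holds no treatment, genotype or time to compare. The cells of every library were primary T cells, the mouse strain was C57BL/6NJ, and sex and age were not recorded. The file headers describe bulk activated cells at 72 h under a name that begins mmTh0, and the labels link a protocol for differentiating CD4+ T cells. The assay is labelled as total RNA, while the linked library protocol is one for polyA RNA.

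The labels number the libraries as biological replicates 1 to 4 but give all of them the same donor identifier. Xist, the RNA of the inactive X chromosome, stood at 332 and 150.1 TPM in replicates 1 and 2 and at 0.877 and 0.392 TPM in replicates 3 and 4, which goes against a single donor. Nothing says that the cells came from separate cultures or animals, and p-values therefore measure only the spread between these libraries. Library totals ran from 49613182 to 94222415 assigned read pairs. All 7 T-cell markers were detected, with a summed level of 6763 to 7013 TPM per library. The summed markers reached 12.9 to 18.2 TPM for CD8 T cells, at most 3.89 TPM for macrophages, 2.28 TPM for B cells and 0.483 TPM for natural killer cells. The CD8 sum was nearly all Cd8b1, with a mean of 15.8 TPM against 0.190 TPM for Cd8a, and the macrophage sum nearly all Adgre1, at 3.21 TPM, with Lyz2 and Csf1r at 0.0136 and 0.0147 TPM. Both neutrophil markers had 0 counts in every library. Levels are TPM (each gene's length-corrected share of a library), computed from the deposited counts and the summed exon length of each gene. They are per length, so levels of different genes stand on 1 scale, but that scale depends on the length taken for each gene, and levels set under another length are given further on. In bulk RNA, more RNA per cell and more cells that make it cannot be told apart.

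Initiation starts when eIF2 brings the initiator tRNA to the small ribosomal subunit, where eIF1, eIF1A, eIF3 and eIF5 also bind. The eIF4 proteins recognise the mRNA cap, unwind the leader and recruit that complex, and eIF5B joins the large subunit. In elongation, eEF1A delivers aminoacyl-tRNA, eEF2 drives translocation, and eIF5A relieves stalling at difficult peptide bonds. Stimulated T cells are known to raise protein synthesis strongly before they divide. Cells adjust the system through kinases that phosphorylate eIF2, through inhibitors that hold eIF4E, and through a kinase that blocks eEF2.

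Nearly the whole family was present: 61 of the 65 genes reached at least 1 TPM in every library, against 49.4% of all protein-coding genes. The detected members had a median mean level of 162.9 TPM, and all detected protein-coding genes had a median of 34.8 TPM. Among protein-coding genes ranked by mean TPM, 2 members stood in the first 10, 4 in the first 100, 19 in the first 500 and 29 in the first 1000. Together the 65 genes took 2.88% ± 0.0228 (SD, n = 4) of all TPM in a library. A large part of that came from few genes. Eef1a1 and Eef2 held 40.7% ± 0.756 of the summed TPM of the family, and with Eif5a the share was 47.8% ± 0.429. By role, elongation factors held 55.7% of the summed TPM, eIF3 subunits 20.3%, cap-binding factors and helicases 12.2%, and the factors of start codon recognition 6.13%. The 5 subunits of eIF2B held 1.81%, the eIF4E-binding inhibitors 1.35%, the joining factors 1.17%, the modifiers of elongation factors 0.875% and the eIF2 kinases 0.475%.

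**Figure D1:**
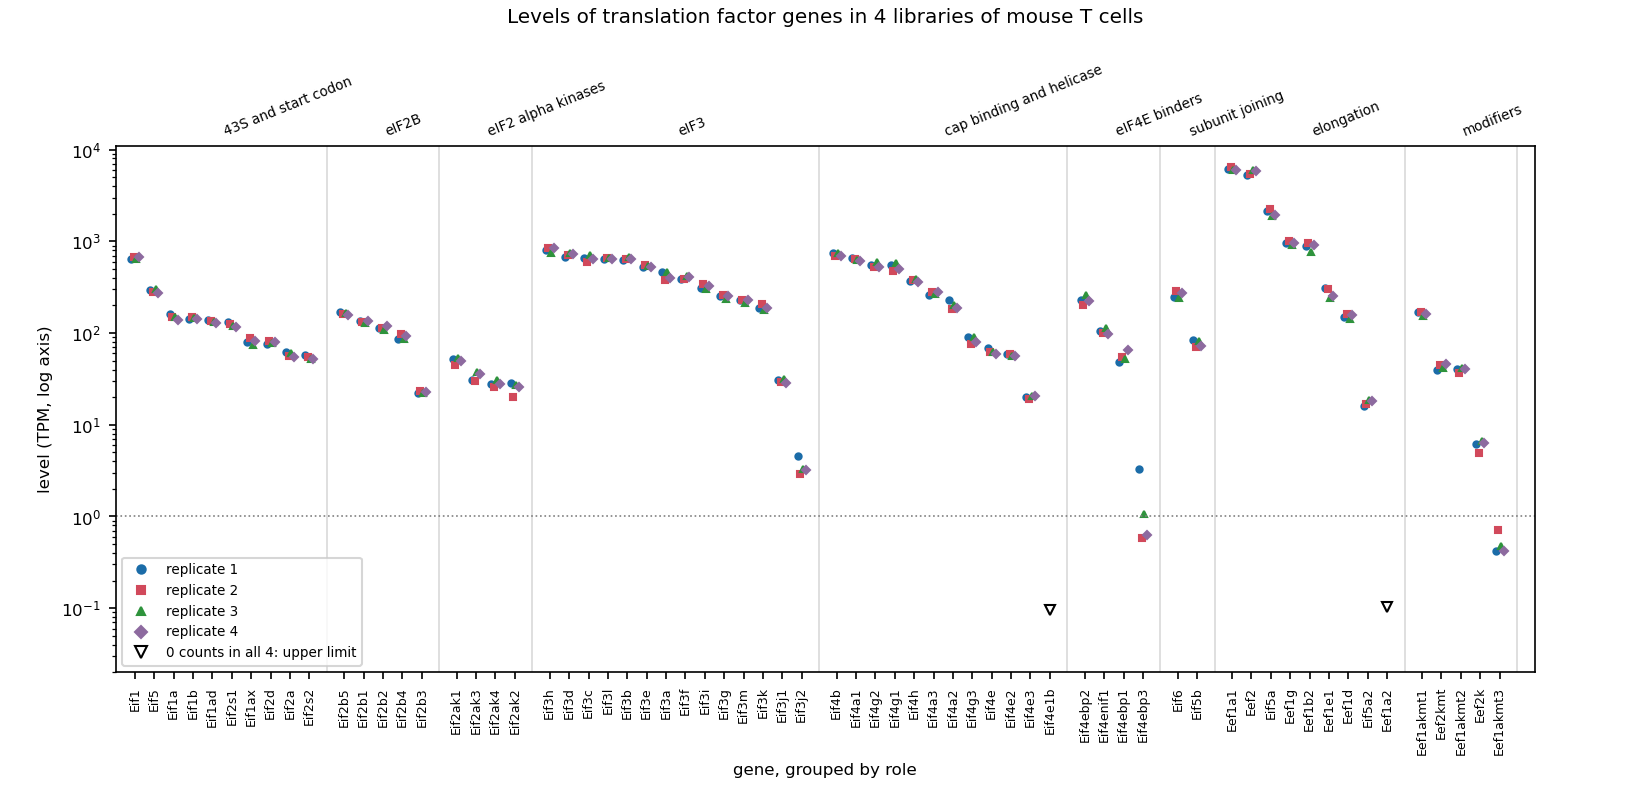
Level of each of the 65 genes in each of the 4 libraries (TPM, log axis), grouped by role and ordered by mean level; open triangles mark the upper limit for genes with 0 counts and the dotted line marks 1 TPM. Eef1a1 and Eef2 lie between 5319 and 6437 TPM, 2 genes have no counts, and the 4 points of most genes nearly coincide.

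The first set of sequences shows how closely abundant members resemble a second gene of the same name, since reads that fit both genes equally well cannot be assigned. Each line is a 60-base stretch of coding sequence from GENCODE release 21 transcripts, in which capitals mark the bases that differ within the pair, with positions counted from the A of the start codon. The stretches of Eef1a1 and Eef1a2 cover bases 73 to 132 and differ at 5 of 60 bases.
Eef1a1: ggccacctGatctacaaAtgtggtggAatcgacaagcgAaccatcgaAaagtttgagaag
Eef1a2: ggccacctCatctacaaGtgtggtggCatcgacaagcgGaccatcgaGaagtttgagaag

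Bases 94 to 153 of Eif5a and Eif5a2 differ at 8 of 60 positions.
Eif5a: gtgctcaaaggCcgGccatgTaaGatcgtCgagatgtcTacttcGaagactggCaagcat
Eif5a2: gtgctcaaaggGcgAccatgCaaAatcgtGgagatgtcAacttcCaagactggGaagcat

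Bases 532 to 591 of Eif4a1 and 538 to 597 of Eif4a2 differ at 5 of 60 positions.
Eif4a1: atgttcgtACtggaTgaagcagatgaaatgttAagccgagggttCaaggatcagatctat
Eif4a2: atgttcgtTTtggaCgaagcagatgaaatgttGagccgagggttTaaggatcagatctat

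Bases 504 to 563 of Eif4a1 and of the processed pseudogene Eif4a-ps4 hold the 1 base by which the whole coding sequence of 1218 bases differs.
Eif4a1: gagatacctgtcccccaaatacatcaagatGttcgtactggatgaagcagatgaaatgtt
Eif4a-ps4: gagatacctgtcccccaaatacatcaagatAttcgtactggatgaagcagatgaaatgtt

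Over their whole aligned coding sequences, Eef1a1 and Eef1a2 shared 80.6% of bases, Eif5a and Eif5a2 73.2%, and Eif4a1 and Eif4a2 78.2%. Their longest identical stretches were 23, 14 and 20 bases, shorter than the 50-base words used below. Eif4a1 and Eif4a-ps4 shared 1217 of 1218 bases with an identical stretch of 684 bases, and Eif3j1 and Eif3j2 shared 781 of 783 bases in 1 identical stretch. Eif4a-ps4 received 580, 644, 481 and 1087 counts in replicates 1 to 4, or 28.4, 32.7, 28.4 and 32.1 TPM. It was the highest of the 8 non-coding genes of the family's name, and the next, Eif5al3-ps, had a mean of 3.82 TPM.

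For each member, every 50-base word of its transcript was looked up in the transcripts of genes elsewhere in the genome. In 31 of the 65 members no word was shared, and the median share was 0.102%. In 13 members more than 10% of words were shared: 90.8% in Eif3j2, 65.3% in Eif4a1, 64.3% in Eef1g, 57.9% in Eef1a1, 48.2% in Eif3j1, 37.3% in Eif3m and 31.6% in Eif1, with Eif2s2, Eif3h, Eif4a2, Eif4a3, Eif3e and Eif4e1b between 14.1% and 27.8%. With 100-base words the number over 10% was 10. The counting command set no option for reads that map to several places, and no source used here gives the read length. Levels of these 13 genes are therefore uncertain, and reads could be missing from them.

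Among the elongation factors, Eef1a1 (chromosome 9, 78478449 to 78489151, minus strand, mm10) encodes the form of eEF1A used in most tissues. Its level was 6122, 6437, 6027 and 5934 TPM in replicates 1 to 4. Its counterpart Eef1a2, the form of muscle and neurons (chromosome 2, 181147653 to 181157014, minus strand), had 0 counts in every library. A limit of 3 counts per library allows Eef1a2 at most 0.103 TPM, which puts Eef1a1 at least 58310-fold higher in each library. Eef2 (chromosome 10, 81176631 to 81182498, plus strand) encodes the translocase and stood at 5319, 5379, 5987 and 5787 TPM. Eef1a1 was above Eef2 within each of the 4 libraries, although the ranges of both genes over libraries overlapped. The ratio of Eef2 to Eef1a1 TPM was 0.869, 0.836, 0.993 and 0.975 in replicates 1 to 4.

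Eif5a (chromosome 11, 69916714 to 69921958, minus strand) encodes the only protein family known to carry hypusine. It was the next most abundant member after these at 2155, 2224, 1892 and 1942 TPM. Eif5a2, its second copy (chromosome 3, 28781276 to 28798846, plus strand), was at 16.2, 16.7, 18.6 and 17.9 TPM. The Eif5a level was 119 ± 16.4 times that of Eif5a2 (SD, n = 4), and the ratio was 133 in replicates 1 and 2 against 102 and 108 in replicates 3 and 4.

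The nucleotide exchange complex that recharges eEF1A is encoded by Eef1b2, Eef1d and Eef1g. Eef1g was at 959, 995, 909 and 952 TPM and Eef1b2 at 898, 951, 767 and 902 TPM, both far below Eef1a1. Eef1d, which encodes the second exchange subunit, was lower at 151, 161, 142 and 155 TPM. Eef1a1 stood at 7.01 ± 0.574 times the level of Eef1b2. Eef1e1, which encodes a scaffold protein of the multisynthetase complex despite its name, was at 310.1, 300.5, 241 and 252 TPM.

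The 5 genes for enzymes that modify elongation factors ranged from 0.505 to 163 TPM in mean level. Eef2k, the calcium-dependent kinase that inhibits eEF2 (chromosome 7, 120842831 to 120907450, plus strand), stood at 6.19, 4.90, 6.60 and 6.26 TPM. The methyltransferase genes were spread widely: Eef1akmt1 was at 171, 169, 152 and 160.3 TPM, Eef2kmt and Eef1akmt2 had means of 43.2 and 39.6 TPM, and the order of the latter pair changed between libraries. Eef1akmt3 was listed below the detection level at 0.416, 0.706, 0.475 and 0.424 TPM.

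In the complex that recognises the start codon, Eif1, the factor that guards start site choice (chromosome 11, 100319885 to 100322096, plus strand), was highest at 643, 671, 637 and 671 TPM. Its paralog Eif1b was at 141, 151, 146 and 141 TPM. eIF1A, which helps the complex scan, has a pair of genes: autosomal Eif1a was at 160.5, 149, 149 and 140.4 TPM and X-linked Eif1ax, the only member on that chromosome, at 80.0, 87.2, 73.9 and 81.0 TPM. With exon lengths, Eif1a and Eif1b did not differ beyond their spread, and each was the higher in 2 of 4 libraries. Eif5, the activator of eIF2's GTPase, had a mean of 289 ± 12.8 TPM.

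Of the eIF2 subunits covered by the name rule, Eif2s1 (alpha) had a mean of 124 ± 7.51 TPM, and Eif2s2 (beta) was at 56.9, 54.2, 51.8 and 51.6 TPM, the lowest of its group with exon lengths. Eif2a and Eif2d, which encode other initiator tRNA binding factors, had means of 58.7 and 78.9 TPM. With exon lengths, Eif2d and Eif1ax did not keep 1 order over the libraries. Eif1ad, named for a domain like that of eIF1A, had a mean of 133 TPM.

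eIF2B exchanges GDP for GTP on eIF2 and is held in check by phosphorylated eIF2. Its 5 subunit genes kept 1 order with no overlapping ranges: Eif2b5 (epsilon, the catalytic subunit), Eif2b1, Eif2b2, Eif2b4 and Eif2b3 (gamma). Eif2b5 was at 170.0, 161, 165 and 156 TPM and Eif2b3 at 22.2, 23.6, 22.5 and 23.0 TPM. The protein holds these subunits in equal number, whereas the exon-length level of Eif2b5 was 7.15 ± 0.420 times that of Eif2b3.

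All 4 kinases of eIF2alpha were detected, with mean levels of 25.2 to 50.1 TPM. That was low beside the median of 162.9 TPM for detected members, but around the median of 34.8 TPM for all detected protein-coding genes. Eif2ak1, which encodes the haem-regulated kinase HRI, stood at 52.4, 45.3, 53.1 and 49.8 TPM. Eif2ak3, the endoplasmic reticulum kinase PERK, was at 30.8, 29.9, 37.7 and 35.8 TPM. Eif2ak4, the amino acid sensor GCN2, was at 27.6, 25.5, 30.8 and 27.9 TPM. Eif2ak2, the double-stranded RNA sensor PKR, was at 28.2, 19.8, 27.1 and 25.9 TPM, and replicate 2 was its lowest library. Eif2ak4 and Eif2ak2 overlapped and changed order in replicate 1. Of the 2 genes that encode regulators of the phosphatase of eIF2alpha, Ppp1r15b had a mean of 141 TPM and the stress-induced Ppp1r15a 25.3 TPM.

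eIF3, the largest initiation factor, bridges the small subunit and the cap complex. Its 12 subunit genes other than Eif3j1 and Eif3j2 lay between 190.4 and 813 TPM with a median of 480.3 TPM. Eif3h, which encodes a subunit with an MPN domain, was highest at 811, 856, 742 and 842 TPM (chromosome 15, 51786558 to 51865481, minus strand). Eif3k, one of the smallest subunits, was lowest of the 12 with exon lengths at 186, 209.6, 178 and 188 TPM. Eif3c, Eif3l and Eif3b had means of 652, 647 and 646 TPM and did not keep 1 order, nor did Eif3a and Eif3f. The loosely attached subunit eIF3j had far lower genes: Eif3j1 was at 31.0, 29.5, 31.2 and 28.8 TPM and Eif3j2 at 4.56, 2.94, 3.29 and 3.24 TPM. Reads could be missing from both, as 48.2% of the 50-base words of Eif3j1 and 90.8% of those of Eif3j2 were shared. Eif3j2 was highest in replicate 1, and without it the coefficient of variation of Eif3j2 was 5.97% in place of 20.5%.

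In the cap-binding group, the RNA-binding helper Eif4b led with exon lengths at 745, 695, 755 and 699 TPM. Eif4a1, the helicase of the cap complex (chromosome 11, 69666936 to 69672423, minus strand), was at 666, 639.7, 619.7 and 616 TPM. Eif4a2, a close relative, was at 230.1, 182, 201 and 187 TPM, and Eif4a3, which serves in the exon junction complex, was at 263, 283, 268 and 281 TPM. The second helper, Eif4h, had a mean of 373 ± 11.6 TPM.

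The scaffold gene Eif4g1 (chromosome 16, 20668313 to 20692884, plus strand) was at 553, 479.9, 575 and 504 TPM. Eif4g2, which encodes the scaffold DAP5 that lacks the eIF4E site, was nearly level with it at 556, 521, 592 and 524 TPM. Eif4g3 was at 89.6, 75.2, 91.6 and 80.5 TPM. Eif4g1, Eif4g2 and Eif4g3 were each lower in replicates 2 and 4 than in replicates 1 and 3.

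Eif4e encodes the cap-binding protein (chromosome 3, 138526179 to 138559696, plus strand). With exon lengths it was low among its partners at 69.1, 62.2, 62.9 and 59.3 TPM, a place that changed under the other length given below. Eif4e2, a cap-binding repressor, overlapped Eif4e with exon lengths at 59.6, 59.5, 55.6 and 56.8 TPM. Eif4e3 was at 20.1, 19.1, 20.8 and 20.8 TPM, and 14.8% of its exon length overlaps another gene on the same strand. Eif4e1b, a form known from oocytes, had 0 counts in every library, which allows at most 0.0955 TPM.

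The eIF4E-binding proteins hold eIF4E away from the scaffold until mTORC1 phosphorylates them. Eif4ebp2 (chromosome 10, 61428491 to 61452661, minus strand) was at 227, 200.3, 261 and 225 TPM. Eif4ebp1 (chromosome 8, 27260329 to 27276674, plus strand) was at 48.2, 54.6, 52.4 and 65.4 TPM. The ranges did not overlap, so the second member of the family was the main one by TPM in every library. Eif4ebp3 was at 3.28, 0.582, 1.06 and 0.629 TPM, with a mean of 1.39 TPM and of 0.758 TPM without replicate 1, but 67.3% of its exon length overlaps Ankhd1 on the same strand, and reads of the pair cannot be told apart there. The transporter gene Eif4enif1, whose protein carries eIF4E into the nucleus, had a mean of 104 ± 7.01 TPM.

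Of the late factors, Eif6, which keeps the large subunit from joining too early, was at 247, 287, 239 and 273 TPM. Eif5b, the GTPase of joining, was at 83.9, 71.3, 82.3 and 71.9 TPM. Eif6 exceeded Eif5b in every library. The level of Eif6 was higher in replicates 2 and 4 than in replicates 1 and 3, and that of Eif5b was lower.

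Within role groups, neighbours in the order of mean level gave 56 comparisons. The order was the same in all 4 libraries for 49 of them, and the ranges over libraries overlapped for 15.

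Related genes were compared within each library as the difference in log2(TPM + 1), a scale that understates differences of low genes. With 4 libraries an exact two-sided sign-flip test has 16 sign patterns and cannot give a p under 0.05, so no pair could pass. Of the 14 pairs compared, 13 had the same sign in every library and reached that smallest p (0.135 after Benjamini-Hochberg adjustment over the 14 pairs). The largest differences on that scale were 12.58 ± 0.05 for Eef1a1 minus Eef1a2 and 6.80 ± 0.20 for Eif5a minus Eif5a2 (SD, n = 4). As Eef1a2 had 0 counts, the value of 12.58 and its SD reflect only the Eef1a1 level and the 1 added to each TPM. With 0.1 added in place of 1, that difference was 15.9. Intermediate values were 2.80 ± 0.19 for Eif3j1 minus Eif3j2, 2.63 ± 0.02 for Eif4g1 minus Eif4g3, 2.17 ± 0.05 for Eif1 minus Eif1b and -2.03 ± 0.26 for Eif4ebp1 minus Eif4ebp2. Of their 50-base words, Eif3j2 shared 90.8% and Eif3j1 48.2% with other genes, so reads could be missing from them unequally. What part this has in the Eif3j1 minus Eif3j2 difference was not tested. Eif4a1 exceeded Eif4a2 by 1.67 ± 0.12 and Eif4a3 by 1.21 ± 0.09, Eif4e exceeded Eif4e3 by 1.60 ± 0.12, and Eif1ax minus Eif1a was -0.89 ± 0.13. Eif2ak1 exceeded Eif2ak3 by 0.57 ± 0.13. Eif4e minus Eif4e2 was 0.13 ± 0.08 and Eif4g2 minus Eif4g1 0.06 ± 0.05. The exception was Eif2ak2 minus Eif2ak4 at -0.15 ± 0.16, with replicate 1 of opposite sign and an exact p of 0.25.

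**Figure D2:**
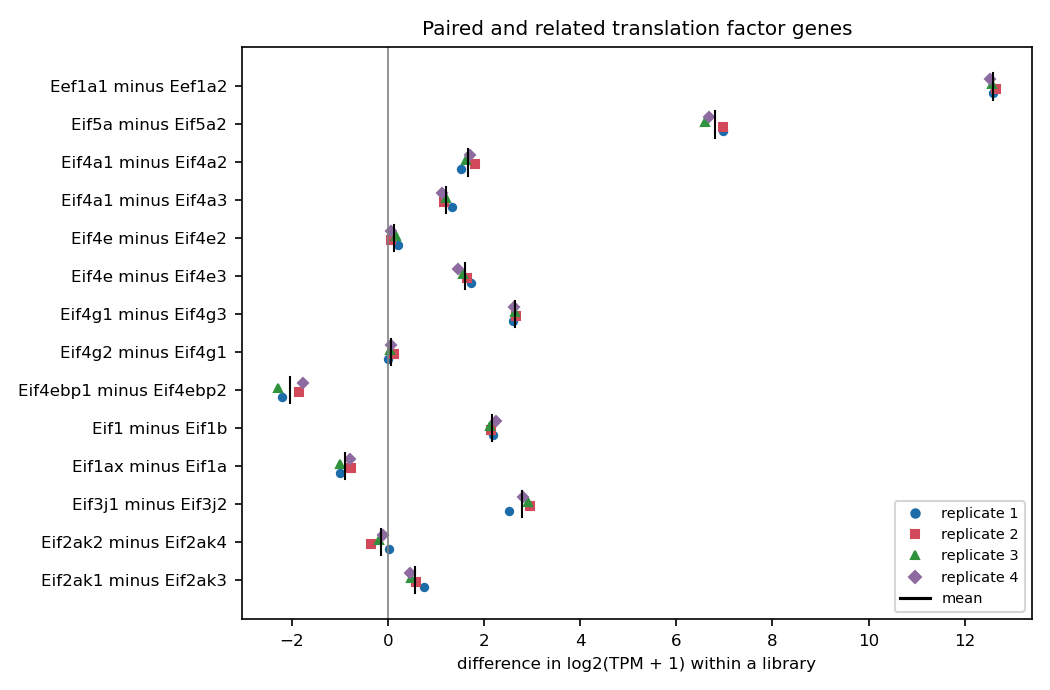
Difference in log2(TPM + 1) between the first and the second gene of each of 14 pairs, 1 marker per library, with a vertical bar at the mean. The markers of a pair lie close together beside the distance from 0 for most pairs, and those of Eif2ak2 minus Eif2ak4 lie on both sides of 0.

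The length by which counts are divided set part of these levels. The tables give the summed length of all annotated exons of a gene, and a second TPM was computed with the median length of the gene's protein-coding transcripts in the GENCODE basic set. Across the 63 members with counts the second level was between 0.252 and 4.73 times the first, with a median of 0.867. The second level was more than 2-fold above the first in 7 members. The mean levels of the 63 genes under both lengths had a Spearman correlation of 0.92, a description across genes that share the same counts. Eif4e moved most upwards, from a mean of 63.4 to 299.6 TPM, as its exons sum to 6008 bases and its basic transcripts have a median of 792.5 bases. Eef1e1 moved most downwards, from 276 to 69.5 TPM. The exon lengths came from GENCODE release 13, which was used for counting, and the basic lengths from release 21. For Eef1e1 the exons counted sum to 1032 bases and the basic length is 2553 bases, so its fall reflects 2 different annotations.

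Ratios between partners followed the length that was used. The summed level of the 3 eIF4E-binding protein genes was 4.51 ± 0.514 times that of Eif4e with exon lengths and 0.895 ± 0.103 times with basic transcript lengths, so the data do not settle which of them is the more abundant. The sum of Eif4g1 and Eif4g3 was 9.67 ± 0.732 and 1.80 ± 0.137 times Eif4e on the same scales. Eif2b5 exceeded Eif2b3 by 7.15-fold with exon lengths and by 2.14-fold with basic lengths, and Eif3h exceeded Eif3k by 4.27-fold and 1.19-fold. The highest of the 12 eIF3 genes other than Eif3j1 and Eif3j2 was 4.27 times the lowest with exon lengths and 2.45 times with basic lengths. Eef2 stood at 0.918 ± 0.0778 and 0.711 ± 0.0603 of the Eef1a1 level, and Eif5a at 119 ± 16.4 and 220 ± 30.4 times Eif5a2. Of the pair differences in log2(TPM + 1), Eif2ak1 minus Eif2ak3 changed sign with basic lengths, from 0.57 to -0.17 with an exact p of 0.25. Eif2ak2 minus Eif2ak4 went from -0.15 to -0.49 and then had the same sign in all 4 libraries. Eif4e minus Eif4e2 went from 0.13 to 0.99, Eif4e minus Eif4e3 from 1.60 to 4.47, Eif4a1 minus Eif4a3 from 1.21 to 2.01, Eif5a minus Eif5a2 from 6.80 to 7.65 and Eif4g2 minus Eif4g1 from 0.06 to 0.46.

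The order within role groups also depended on the length. With basic lengths the highest of the 12 eIF3 genes was Eif3i at 656 TPM and the lowest Eif3a at 268 TPM, with Eif3h at 490.5 and Eif3k at 414 TPM between them. Eif4a1 led the cap-binding group at 968 TPM, above Eif4b at 644 TPM. Eif2s2 stood at 93.1 TPM, above Eif1ad at 80.2 and Eif1ax at 51.1 TPM, and the ratio of Eif2s1 to Eif2s2 was 1.20 in place of 2.30. Eif2d stood at 168 TPM, apart from Eif1ax, and Eif1a at 137 ± 7.35 TPM, above Eif1b at 98.1 ± 3.24 TPM.

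**Figure D3:**
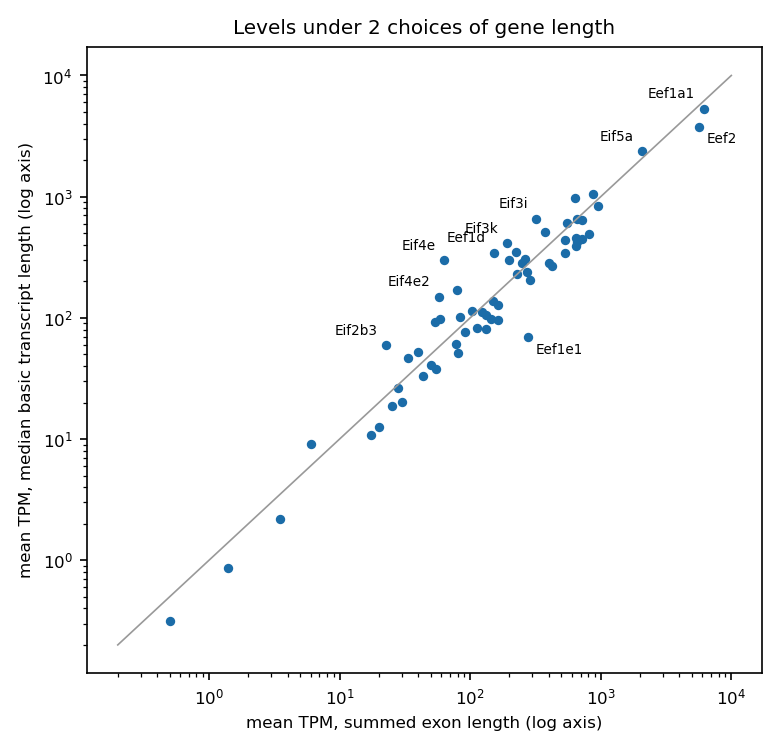
Mean TPM of each of 63 genes with the summed exon length of release 13 (horizontal, log axis) and the median basic transcript length of release 21 (vertical, log axis). The line marks equal levels. Eif4e lies furthest above the line, at 63.4 and 299.6 TPM, and Eef1e1 furthest below it, at 276 and 69.5 TPM.

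The family varied little between libraries. The coefficient of variation of TPM had a median of 5.54% over the 61 detected members, from 1.35% in Eif3l to 20.5% in Eif3j2, and a median of 7.94% over detected protein-coding genes. It was under 10% in 85.2% of the members and in 65.3% of detected protein-coding genes. The highest library exceeded the lowest by more than 1.5-fold in 1 of 61 members, Eif3j2, and in 8.52% of detected protein-coding genes. After Eif3j2, the most variable members were Eif2ak2 at 14.8%, Eif4ebp1 at 13.3%, Eef2k and Eef1e1 at 12.5% each and Eif2ak3 at 11.2%. Abundant genes have less counting error, and the median level of the members was above that of the genes they are set beside.

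Whether any gene differed between the libraries more than genes of like abundance was tested with edgeR, using the deviance of each gene from 1 common level. Of 13681 genes tested, 94 passed at an adjusted p under 0.05, which is 0.687%. None of the 62 members tested passed in edgeR, and DESeq2's dispersion outliers also held 0 members. At a share of 0.687%, few or no calls would fall among 62 genes. An unadjusted edgeR p under 0.05 was found in 2 members, and in 959 of the 13681 genes. The 2 were Eef1e1, at an edgeR adjusted p of 0.427, and Eif4ebp1, at an edgeR adjusted p of 0.524. Eef1e1 was higher in replicates 1 and 2 (310.1 and 300.5 TPM) than in replicates 3 and 4 (241 and 252 TPM), and Eif4ebp1 was highest in replicate 4 (65.4 TPM). The libraries in which Eef1e1 and the ratio of Eif5a to Eif5a2 were higher are those with high Xist. That split was not particular to them. Other members, among them Eef1a1, Eif2s1, Eif4a1 and Eif5a, were also higher in both of those libraries than in replicates 3 and 4. Others, among them Eef2, Eif2ak3, Eif3d and Eif3f, were lower in both. The part of the difference in Xist between libraries in these values was not tested. Eef1a2, Eif4e1b and Eif4ebp3 had too few counts to be tested. The median standard deviation of log2 CPM over libraries was 0.09 for the members and 0.13 for all genes tested.

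The deviations of the libraries moved in part with gene length. The deviation of a library from a gene's mean log2(TPM + 1) had a Spearman correlation with exon length of 0.15, -0.39, 0.55 and -0.20 over 62 members in replicates 1 to 4. The same correlations over 11054 protein-coding genes were 0.23, -0.50, 0.51 and -0.31. These are descriptions across genes of 1 library each, and the genes share its depth and preparation. The long scaffold genes Eif4g1 and Eif4g3 and the long Eif5b were higher in replicates 1 and 3 than in replicates 2 and 4. With a smooth length trend removed from each library, the median standard deviation of log2 CPM was 0.07 for the members and 0.11 for all genes tested. An unadjusted edgeR p under 0.05 was then found in 4 members and in 905 of 13681 genes. What part the length trend has in the level of any single member was not tested.

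**Figure D4:**
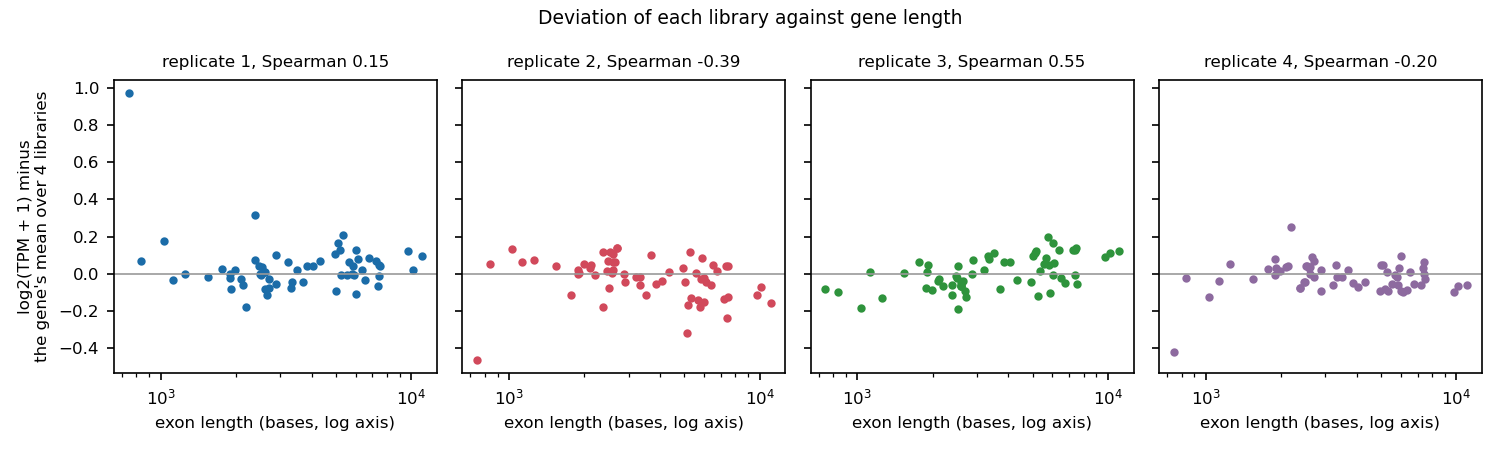
Deviation of each library from the gene's mean over 4 libraries in log2(TPM + 1) against summed exon length in bases (log axis), 1 point per gene and 1 panel per library, for the 62 members with a mean of at least 1 TPM. Points rise with length in replicate 3 (Spearman 0.55) and fall in replicate 2 (Spearman -0.39). The leftmost point is Eif4ebp3, at 744 bases, with 41, 7, 11 and 13 counts in replicates 1 to 4.

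The genes around the family were described from 7 lists of other translation genes. All 52 of their members were detected, against 49.4% of all protein-coding genes. None was called in edgeR, against 0.687% of all genes tested, a share at which few or no calls would fall among 52 genes. An unadjusted edgeR p under 0.05 was found in 0 of the 52 and in 959 of 13681 genes tested. The smallest edgeR adjusted p in the lists was 0.797. In termination and recycling, the release factor gene Etf1 was highest at a mean of 426 TPM, and Gspt2, the second gene for its partner, was lowest at 7.86 TPM. Among the mTORC1 components and eIF4E kinases, Mknk2, a kinase of eIF4E, was highest at 364 TPM and the activator Rheb lowest at 16.1 TPM. Pabpc1, the poly(A)-binding protein that contacts eIF4G, was at 1011 TPM, above Eif4g1, and Paip2b, of its inhibitor family, at 41.5 TPM. Of the enzymes that make hypusine on eIF5A and diphthamide on eEF2, Dohh was highest at 87.1 TPM and Dph6 lowest at 8.76 TPM, both far below their substrates. The mitochondrial counterparts ran from Tufm at 191 TPM to Guf1 at 10.6 TPM. The selenocysteine factor Eefsec was at 66.8 TPM and Secisbp2 at 31.9 TPM.

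Promoters of 300 bases around the annotated start from RefSeq on GRCm38.p6 matched 49 of the 65 genes. The E-box CACGTG, a palindrome that reads the same on both strands and is known as a binding sequence of MYC, was in 24.5% of these 49 genes (12 genes), in 8.09% of all genes with a promoter and in 12.1% of those detected here. The ETS-type motif CCGGAAG, on either strand, was in 34.7%, 9.93% and 22.2% of the same groups. TATAAA, on either strand, was in 8.16%, 15.7% and 8.01%. A start of C followed by 4 pyrimidines, the mark of mRNAs with a terminal oligopyrimidine tract, was found at the annotated start of 1 of the 49, Eif3f, and in 2.96% of detected genes. That match was sought only at the annotated base, so a true start a few bases away would be missed. The value therefore does not show how many members have such a tract. A match describes letters in a window and not a site in use, and the absence of a match says nothing about a factor. The 4 stretches of 60 bases below hold the E-box in capitals and belong to the 4 genes of highest level whose stretch lies wholly before the gene, on the gene's own strand: Eef2 at chr10:81176561-81176620 (plus), Eif4a1 at chr11:69672580-69672639 (minus), Eif3f at chr7:108934320-108934379 (plus) and Eif3k at chr7:28981900-28981959 (minus).
Eef2: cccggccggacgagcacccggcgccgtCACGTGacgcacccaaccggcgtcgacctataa
Eif4a1: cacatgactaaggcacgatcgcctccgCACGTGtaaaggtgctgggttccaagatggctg
Eif3f: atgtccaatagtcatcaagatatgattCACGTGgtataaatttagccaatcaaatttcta
Eif3k: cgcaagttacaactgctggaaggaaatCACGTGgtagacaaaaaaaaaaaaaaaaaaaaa

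The 12 genes with the E-box ran over a wide range of levels, from Eef2 at a mean of 5618 TPM to Eef2k at 5.99 TPM.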

How the data were processed

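Bulk RNA-seq of T cells was deposited as 1 table per library. Per the file headers, the authors made whole-number counts with featureCounts 1.4.6-p4: read pairs with both ends aligned, reverse strand, with the exons of a gene added together (GENCODE release 13, mouse), with no option set for reads that map to several places. The build was mm10 per the labels. The aligner's version and the read length are not given in the sources used here. Antisense neighbours were kept apart by strand.

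Symbols and types came from GENCODE release 21 (50376 of 50600 genes matched). TPM was computed from the counts and the exon lengths of the tables. Detection meant 1 TPM or more in each of the 4 libraries. Variation between libraries was tested with edgeR 4.0.16 in R 4.3.3 (TMM factors, filterByExpr, trended dispersion, deviance against chi-square, Benjamini-Hochberg over all genes tested, threshold 0.05), with DESeq2 1.42.0 as an alternative. The scripts for these fits were tested on simulated data. There edgeR called 16 of 50 genes raised 1.5-fold in some libraries and 41 of 50 raised 2-fold. Of 13481 unchanged genes it called 3. A gene with 0 counts was given a limit of 3 counts, which covers counting error only. Exact sign-flip tests went through all sign patterns, and the Benjamini-Hochberg adjustment of their p-values used scipy 1.17.1. Coding sequences were aligned with biopython 1.88.

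The name rule uses no values, but the family to describe, and thus the members, and the lists were chosen with earlier results of these data known. Ratios, shared words, the E-box, ETS and TATA motifs, basic transcript lengths and the length trend were chosen after values had been seen. Any member could be named. Values per library were given for the pairs, for the highest and lowest member of each role group and for members under 1 TPM in any library. Of the other lists, the highest and lowest gene was named.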

Additional observations from a re-analysis of the deposited data

How the results depend on the processing

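The number of members called variable was 0 under every alternative tried: DESeq2 size factors, a common dispersion, no filter, a mean count of at least 50, DESeq2 dispersion outliers, leaving out each replicate, and a length trend removed. At the shares of all genes called under these settings, few or no calls would fall among the members. The number of all genes called was 94, and it was 617 with a common dispersion, 43 as DESeq2 dispersion outliers and 38 to 87 with 1 replicate left out (46 without replicate 1, 38 without replicate 2, 46 without replicate 4). The causes were not tested. The median standard deviation of log2 CPM over the members was 0.0879, between 0.07861 and 0.09917 with 1 replicate left out, and 0.06847 with the length trend removed. The members' share of a library was 2.88% of TPM, 2.69% of counts, 3.05% of TPM over protein-coding genes, 2.608% with basic transcript lengths, and 2.875% to 2.893% with 1 replicate left out. Of 84 alternative values of the 14 pair differences, 83 kept their sign. The exception was Eif2ak1 minus Eif2ak3, at -0.1701 with basic transcript lengths. The alternatives with basic transcript lengths and with the length trend were chosen after seeing the data. No paired analysis was possible because the libraries form 1 group. Depth limits the genes at 0 counts to the upper limits given above, and with 4 libraries a small difference may not be detectable.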
